A study of Mus musculus with 12 samples.

Results

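The 8 genes described here encode 5 kinases of the Src family (Fgr, Lyn, Fyn, Src and Yes1) and 3 partner kinases (Csk, Syk and Btk). They were chosen by symbol, as the rows of the count table that carry these names, and make up 8 of its 48440 genes. RNA of cultured mouse macrophages, grown from precursors in bone marrow, was sequenced in 12 libraries, 2 in each of 6 groups. Libraries were labelled wild type (WT) or CKO, and cells of either genotype were left untreated or received IFN-γ at 100 U/mL or IL-4 at 20 ng/mL, both for 24 h. The title of the study names the transcription factor IRF8 in macrophages and breast cancer metastasis, but the labels do not spell out CKO, do not name the deleted gene or a Cre driver, and leave it unsaid whether 2 libraries of a group are 2 animals. All p-values therefore rest on a spread between libraries that may be technical only. Values are in CPM, counts scaled to the size of the library, and levels of different genes are compared per kilobase of exon (RPKM). Differences are log2 fold changes ± SE from edgeR, called at an adjusted p under 0.05 over 16292 genes tested, and n = 2 libraries per group throughout.

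Kinases of the Src family sit at the inner face of the cell membrane and phosphorylate the tyrosine motifs (ITAMs) of Fc receptors, C-type lectins and TREM receptors once these bind their ligands. Syk docks on the phosphorylated ITAMs and passes the signal to adaptors, phospholipase C gamma and Btk, a kinase of the Tec family. Csk phosphorylates an inhibitory tyrosine in the tail of Src family kinases and holds them inactive, while Lyn and Fgr also act through inhibitory motifs (ITIMs) that recruit phosphatases. Counts of messages do not measure the activity of these kinases.

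All 8 members passed the filter on low counts. Reference sequence was matched in RefSeq on GRCm38.p6 for 7 of the 8 genes, with 9 windows of 250 bases directly before an annotated start; Lyn had no entry. The windows of Fgr and Btk are shown because Fgr had the widest range between groups and Btk the narrowest. Neither window overlaps an exon of its gene, though that of Btk lies within the annotated span of the gene, which runs to 134583570. Windows of Syk, Src and Fyn do overlap exons of their genes in the GENCODE M21 annotation. The first of Syk does so over all 250 bases, Src over 177, Fyn over 35 and the second of Syk over 29. Capitals mark GGAA, the core that ETS factors such as PU.1 bind, on either strand. The Fgr window lies on the plus strand at chr4:132973845-132974094 and the Btk window on the minus strand at chrX:134583141-134583390, both printed 5′ to 3′ along the gene.
Fgr: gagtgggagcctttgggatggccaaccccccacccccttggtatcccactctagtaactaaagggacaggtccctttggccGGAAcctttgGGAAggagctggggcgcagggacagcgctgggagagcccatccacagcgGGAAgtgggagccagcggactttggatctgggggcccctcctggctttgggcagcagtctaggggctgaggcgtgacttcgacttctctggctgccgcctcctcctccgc
Btk: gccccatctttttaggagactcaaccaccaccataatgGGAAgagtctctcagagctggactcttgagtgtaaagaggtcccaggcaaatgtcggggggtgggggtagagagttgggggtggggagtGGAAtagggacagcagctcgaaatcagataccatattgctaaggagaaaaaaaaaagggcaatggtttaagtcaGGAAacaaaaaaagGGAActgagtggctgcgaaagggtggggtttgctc
The Fgr window holds 3 GGAA cores and the Btk window 4, where 54.7% and 33.4% of 32851 windows in the same table hold as many or more. Of the 9 windows of the members, those of Fyn and the first of Syk hold 0 cores and the first of Csk holds 6, a count reached by 8.7% of windows. Searching for GGAA was added after these sequences had been seen. None of 5 longer words was found on either strand in any of the 9 windows: the GAS site TTCNNNGAA (in 7.02% of all windows), the STAT6 spacing with TTC and GAA 4 bases apart (5.85%), the interferon-stimulated element with GAAA repeated 2 bases apart (2.98%), the ETS-IRF composite with GGAA and GAAA 2 bases apart (2.30%) and the PU.1 word GAGGAAGT (2.44%). The first 4 words can overlap one another, and the last 2 each contain GGAA. That says only that these letters are not in these windows.

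Irf8, counted over the whole gene, was higher in the libraries labelled CKO under each treatment, with 270.1 ± 31.7 against 91.05 ± 0.228 CPM (SD) in untreated cells (edgeR adjusted p from 1.25e-05 to 0.00023 over the 3 treatments), so the counts went against a loss of its message. Whole-gene counts do not show whether an exon was deleted, and below CKO and WT mean only the labels of the libraries; the direction of each genotype difference rests on these labels. The cytokines acted in both genotypes: Gbp2 rose with IFN-γ by 9.73 in WT and 9.36 in CKO, and Arg1 rose with IL-4 by 11.30 and 9.87 (log2, all called). The macrophage markers Csf1r (908.5 to 1811 CPM), Adgre1 (599.4 to 1328) and Cd68 (608.4 to 1147) were abundant in all 12 libraries, but Lyz2 was at 5842 to 11850 CPM in WT and 12.6 to 28.0 CPM in CKO. The full list of 10 macrophage markers summed to 9550 to 16970 CPM in WT and 4963 to 7992 CPM in CKO. Group means of Lyz2 alone were 11400, 5939 and 7091 CPM in untreated, IFN-γ and IL-4 WT cells, against 26.8, 14.1 and 15.4 in CKO. The lower CKO sums thus largely reflect Lyz2 and not the list as a whole. Of the 10 markers, 4, 6 and 0 were higher and 3, 3 and 3 lower in CKO in untreated, IFN-γ and IL-4 cells. Over all genes 8.60%, 10.4% and 1.41% were higher and 9.37%, 8.01% and 1.55% lower. Summed markers of B cells (1.41 to 5.01 CPM), T and NK cells (0.186 to 7.56), mast cells and stroma stayed below 10 CPM. Lists of neutrophil and of monocyte markers were higher in CKO and are given beside Fgr below. A list of dendritic cell markers was at 50.8 to 60.2 CPM in WT after IFN-γ and at 2.08 to 11.3 CPM in the other 5 groups. Platelet markers summed to 52.8 to 257.1 CPM. Gp9 and Itga2b had group means under 1 CPM and Gp1bb was at 0, so the sum came almost wholly from Pf4 and Ppbp. In such bulk samples, fewer cells of a type and less RNA per cell cannot be told apart. Totals were 21287725 to 32717379 counts per library. Untreated CKO library 1 stood apart, with 1.52% mitochondrial counts (95% Wilson interval 1.51 to 1.52, counting error only) against 2.12 to 3.25% in the other 11, and results that rest on it are given without it as well. The ribosomal-RNA-like Gm42418 took 0.753 to 1.28% of the counts in 3 libraries (library 1 of untreated WT, of WT with IFN-γ and of untreated CKO) and 0.0717 to 0.174% in the other 9. A fit of these 9 libraries alone, added after the data had been seen, left 3 groups with 1 library each, and its values stand beside the calls that it changed.

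Per kilobase of exon, averaged over the 12 libraries, Lyn was the most abundant member at 68.0 RPKM. Syk at 32.0, Csk at 31.3, Btk at 21.4 and Fyn at 16.3 RPKM followed, and Fgr averaged 2.22 RPKM. Src at 0.195 and Yes1 at 0.032 RPKM were near the limit of detection, with 10 to 47 and 3 to 11 counts per library. The libraries were made with an exome-capture kit, so a level per length also carries how well the exons of each gene were captured, which was not measured. The ratio of the highest to the lowest group mean was 12.8 for Fgr, 4.99 for Fyn, 4.93 for Src, 3.32 for Lyn, 2.03 for Yes1, 1.48 for Syk, 1.31 for Csk and 1.11 for Btk. The partner kinases thus spanned a smaller range of levels than the 5 Src family members, though for Yes1 the range was within counting scatter.

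**Figure D1:**
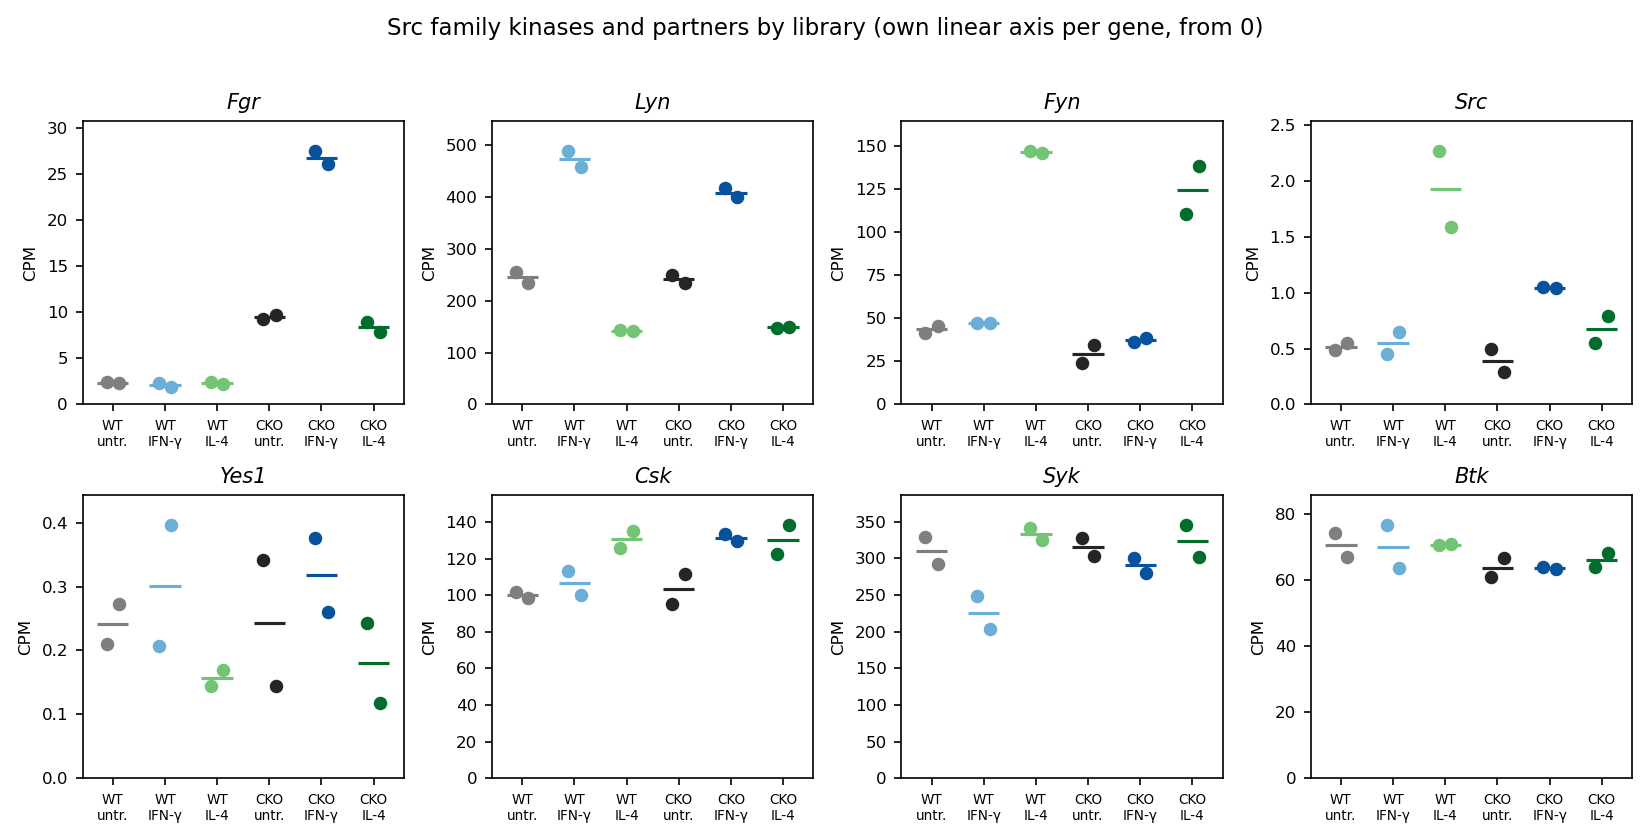
CPM of each of the 8 genes in the 12 libraries, by genotype and treatment, each gene on its own linear axis from 0; dots are libraries and bars are group means. Fgr is at 7.82 to 27.4 CPM in the 6 CKO libraries and at 1.91 to 2.46 in the 6 WT libraries, while Fyn is highest after IL-4 and Lyn after IFN-γ in both genotypes.

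Between genotypes, 2 of the 8 members differed in untreated cells (Fgr higher and Fyn lower in CKO), where 18.0% of all genes tested were called. After IFN-γ 1 member differed (Fgr higher, background 18.4%), and after IL-4 2 did (Fgr higher and Src lower, background 2.96%). IFN-γ changed 2 members in WT (Lyn up, Syk down, background 24.1%) and 4 in CKO (Fgr, Lyn, Src and Csk up, background 26.6%). IL-4 changed 4 in WT (Fyn, Src and Csk up, Lyn down, background 12.2%) and 3 in CKO (Fyn and Csk up, Lyn down, background 22.5%). Set directly against IL-4, IFN-γ gave 4 differences in WT (Lyn higher; Fyn, Syk and Src lower; background 28.0%) and 3 in CKO (Fgr and Lyn higher, Fyn lower, background 29.9%). The response to IFN-γ differed between genotypes for 1 member, Fgr (background 2.72%), and the response to IL-4 for 0 of 8 (background 0.0368%, of which 0.0246% higher and 0.0123% lower). By edgeR 6 of all genes were called in that last test, with 981 at an unadjusted p under 0.05 and 42 by DESeq2. The genotype gap after IFN-γ minus that after IL-4, a contrast added after the data had been seen, was called for 2 members, Fgr and Src, both positive (background 3.04%, with 2.14% positive and 0.902% negative). Leaving out 1 library at a time moved the genotype backgrounds themselves, to 5.37 to 30.7% in untreated, 7.48 to 24.2% in IFN-γ and 0.786 to 4.2% in IL-4 cells. Both cytokines were compared with the same untreated libraries, so their effects are not independent of each other. Libraries of the groups did not overlap for 3, 6 and 5 of the 8 members between genotypes in untreated, IFN-γ and IL-4 cells, where 59.4%, 63.0% and 47.8% of all genes did not overlap. With IFN-γ 4 members in WT and 6 in CKO were separate from untreated (59.9% and 61.8% of all genes), and with IL-4 5 and 5 (61.8% and 56.8%). Between the cytokines 6 members were separate in WT and 6 in CKO (65.5% and 67.4%). These counts lie near the share of all genes and are no result about the members.

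**Figure D2:**
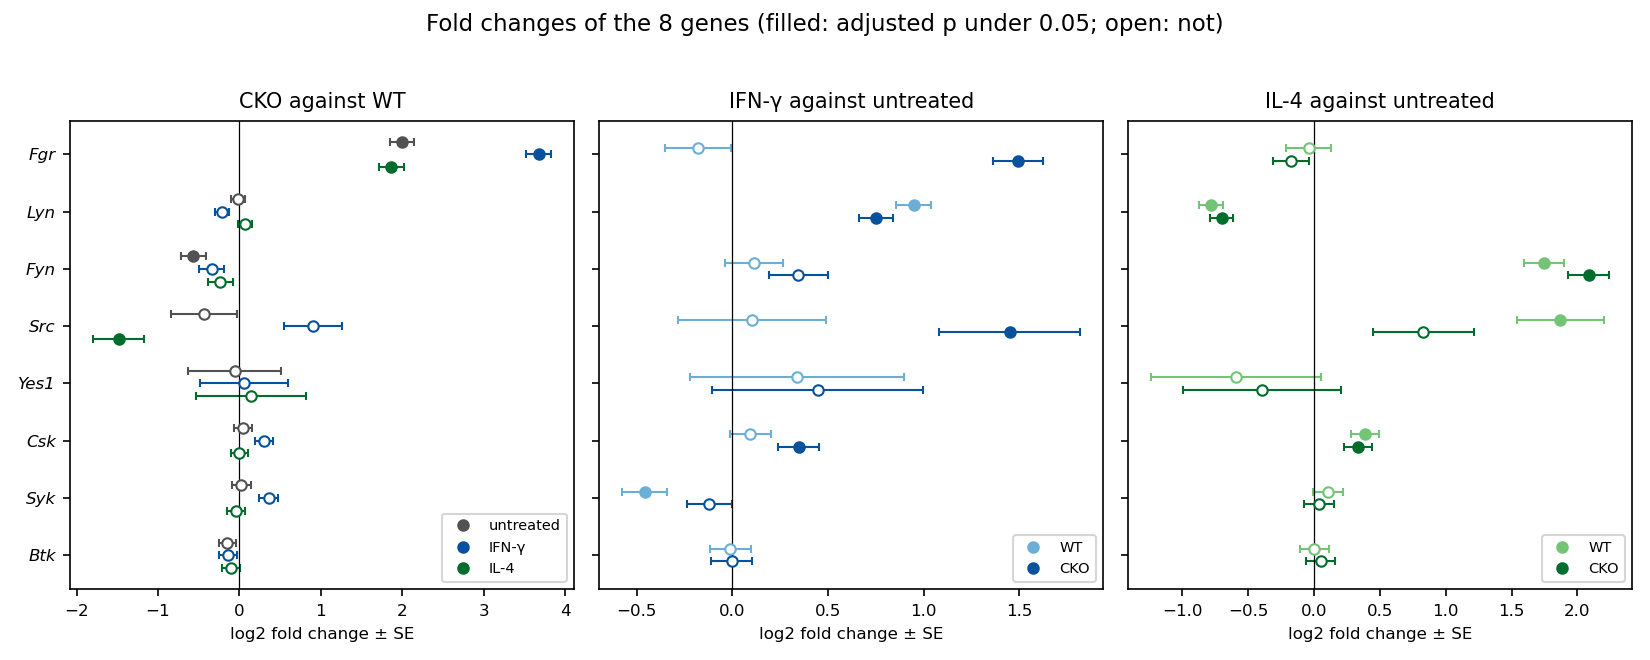
Log2 fold change ± SE of the 8 genes for CKO against WT in each treatment (left), IFN-γ against untreated (middle) and IL-4 against untreated (right); filled points have an adjusted p under 0.05. Fgr stands to the right of 0 in each of the 3 genotype comparisons, while Btk lies within 0.15 of 0 in all of them.

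Fgr (ENSMUSG00000028874.14, GRCm38 chr4:132974095-133001910, plus strand) is a Src family kinase of myeloid cells. In the WT libraries it was at 2.45 and 2.29 CPM untreated, 2.28 and 1.91 after IFN-γ and 2.46 and 2.16 after IL-4, from 51 to 70 counts each. The CKO libraries held 9.26 and 9.69 CPM untreated, 27.4 and 26.0 after IFN-γ and 8.98 and 7.82 after IL-4. All 6 CKO libraries thus lay above all 6 WT libraries, each WT group overlapped its neighbour in level, and the 3 CKO groups did not overlap. CKO exceeded WT by 2.0 ± 0.15 in untreated cells, which is 4-fold (edgeR adjusted p = 1.46e-05; 2.04 and 6.98e-05 without untreated CKO library 1). The difference was 12.8-fold after IFN-γ (edgeR adjusted p = 1.03e-07) and 3.65-fold after IL-4 (1.87 ± 0.16, edgeR adjusted p = 8.25e-05). IFN-γ raised Fgr in CKO by 1.49 ± 0.13 (edgeR adjusted p = 4.3e-06; 1.44 and 6.68e-05 without untreated CKO library 1), against -0.18 ± 0.17 in WT (edgeR adjusted p = 0.524). That difference of responses was 1.68 ± 0.22, with a 95% interval of 1.20 to 2.15 (edgeR adjusted p = 0.00213; 1.62 and 0.00609 without that library). In the 9 libraries low in Gm42418 it was 1.69 and no longer called (edgeR adjusted p = 0.0537). IL-4 gave -0.04 in WT and -0.18 in CKO (edgeR adjusted p = 0.919 and 0.376), and the genotype gap after IFN-γ exceeded that after IL-4 by 1.81 ± 0.22 (edgeR adjusted p = 0.00154).

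Summed markers of neutrophils and monocytes moved with Fgr across genotypes and, in CKO, with IFN-γ, though not every neutrophil marker rose with IFN-γ. The summed level of 12 neutrophil markers was 34.7 to 71.8 CPM in WT and 171.7 to 404.9 CPM in CKO. Of the 11 tested, 10, 10 and 8 were higher in CKO in untreated, IFN-γ and IL-4 cells (background 8.60%, 10.4% and 1.41%). Ly6g, which defines mature neutrophils, stayed at 1 to 6 counts in every library. The 8 monocyte markers summed to 34.2 to 202.1 CPM in WT and 62.6 to 334.7 CPM in CKO. In the same order of treatments 8, 7 and 5 of 8 were higher in CKO, against the same backgrounds. With IFN-γ 6 of 11 neutrophil markers rose in CKO (median 0.79) and 1 in WT (median 0.30). Of 8 monocyte markers, 6 rose and 2 fell in CKO (median 1.11) and 4 rose and 2 fell in WT (median 0.80). Over all genes 14.7% rose and 11.9% fell in CKO, and 12.4% and 11.8% in WT. The response to IFN-γ was not called as different between genotypes for any neutrophil marker (0 of 11). Among the 8 monocyte markers 1 was higher and 1 lower in that test (background 2.07% and 0.651%). In CKO both sums were highest in the libraries with IFN-γ, where Fgr was highest too, with neutrophil sums of 404.9 and 404.8 CPM and monocyte sums of 334.7 and 311.2 CPM. They were at 310.2 and 176.1 and at 137.1 and 119.6 CPM in untreated CKO, and at 192.0 and 171.7 and at 62.6 and 70.9 CPM in CKO with IL-4. S100a8 and S100a9, averaging 130.6 and 150.4 CPM, made up most of the neutrophil sum in CKO with IFN-γ. From untreated to IFN-γ CKO, mean CPM fell for Elane (3.93 to 3.06), Mpo (10.3 to 9.60) and Retnlg (2.25 to 1.14). It changed little for Camp (2.60 to 2.80) and Ltf (29.5 to 31.7). Means rose for Ngp (20.6 to 39.7), Lcn2 (12.2 to 22.4), Cxcr2 (2.30 to 5.72) and Prtn3 (4.33 to 7.49). In WT monocyte markers summed to 45.1 and 49.5 CPM untreated and to 140.6 and 202.1 CPM with IFN-γ, with Fgr between 1.91 and 2.45 CPM. The part of other cells in the differences of Fgr was not tested.

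**Figure D3:**
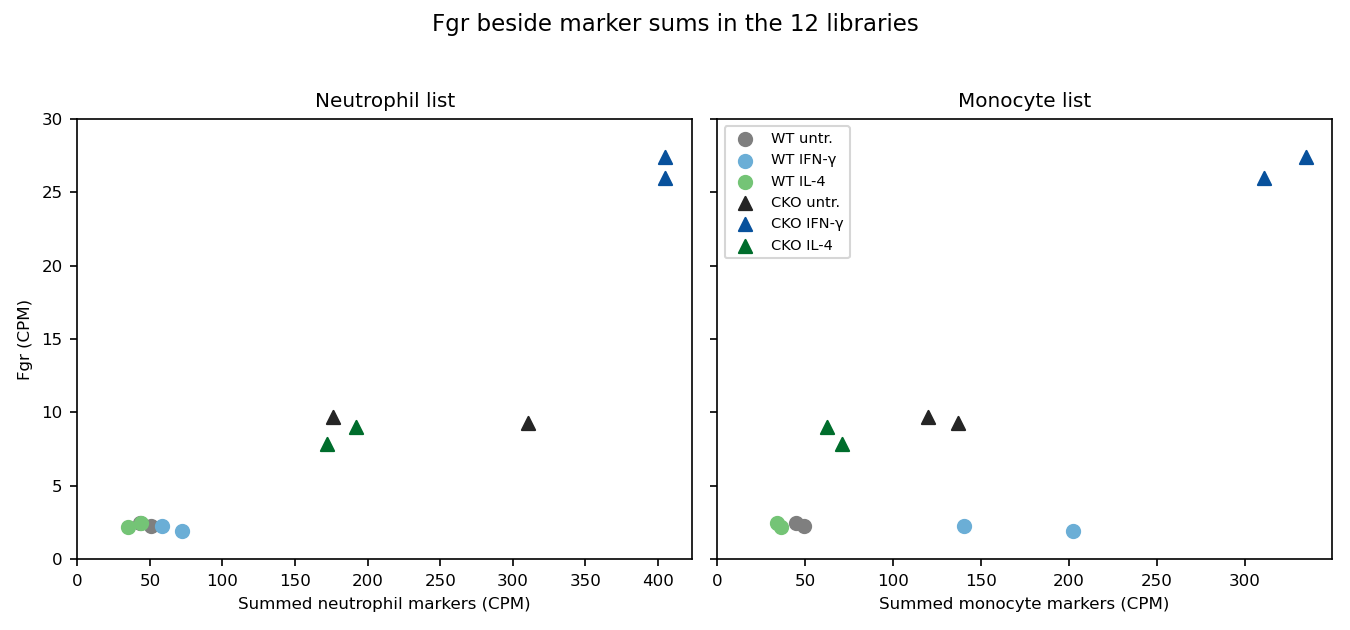
Fgr (CPM) against the summed CPM of 12 neutrophil markers (left) and 8 monocyte markers (right) in each library, with circles for WT and triangles for CKO. S100a8 and S100a9 (group means of 130.6 and 150.4 CPM) make up most of the neutrophil sum in CKO with IFN-γ. The CKO libraries with IFN-γ have the highest sums in both panels (404.8 and 404.9 CPM; 311.2 and 334.7 CPM) and the highest Fgr (26.0 and 27.4 CPM), the other CKO libraries have Fgr between 7.82 and 9.69 CPM at neutrophil sums of 171.7 to 310.2 CPM, and WT stays below 2.5 CPM of Fgr at monocyte sums of 34.2 to 202.1 CPM.

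Of 8601 genes eligible by level and symbol, those whose log2 CPM followed Fgr most closely over the 12 libraries were S100a9 (Pearson r = 0.952), Fermt3 (0.951) and S100a8 (0.951), with no test attached, and the points share their libraries and the 2 genotypes. S100a9, a calcium-binding protein of neutrophils and monocytes, was at 11.8 to 20.9 CPM (group means) in WT and at 85.1 untreated, 150.4 after IFN-γ and 61.8 after IL-4 in CKO. Fermt3, the kindlin-3 that activates integrins, spanned only 255.2 to 277.7 CPM in WT and 303.7 to 333.4 CPM in CKO, so its pattern resembled that of Fgr on a far smaller scale.

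Lyn (ENSMUSG00000042228.14, GRCm38 chr4:3678115-3813122, plus strand), which signals for both activating and inhibitory receptors, rose with IFN-γ and fell with IL-4. WT libraries were at 256.3 and 234.5 CPM untreated, 488.5 and 457.6 after IFN-γ and 143.6 and 141.3 after IL-4. CKO libraries were at 250.8 and 234.7 CPM untreated, 417.1 and 400.0 after IFN-γ and 148.3 and 150.2 after IL-4. The 3 treatments were separate in either genotype, and untreated WT and CKO overlapped. IFN-γ raised Lyn by 0.95 ± 0.09 in WT and 0.75 ± 0.09 in CKO (edgeR adjusted p = 7.91e-06 and 5.19e-05). IL-4 lowered it, by -0.78 ± 0.09 and -0.70 ± 0.09 (edgeR adjusted p = 0.000108 and 0.000187). Without untreated CKO library 1 the CKO values were 0.78 and -0.66, both still called. Between genotypes Lyn differed by -0.02, -0.21 and 0.07 in untreated, IFN-γ and IL-4 cells (edgeR adjusted p = 0.925, 0.119 and 0.824), with a 95% interval after IFN-γ that reaches -0.02 at its upper end. An antisense lincRNA, Gm26857, shares exon bases with Lyn, and since the strand setting of the counting is not known here, its reads cannot be told apart from those of Lyn there. The genes most like Lyn over the 12 libraries were Exoc6 (r = 0.993), Fam102a (0.990) and Lpin2 (0.990); Fam102a, for example, averaged 17.0, 82.2 and 5.97 CPM in untreated, IFN-γ and IL-4 WT cells.

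Fyn (ENSMUSG00000019843.14, GRCm38 chr10:39368855-39565381, plus strand), a broadly expressed Src family kinase best known from T cells and neurons, rose with IL-4 in both genotypes. WT libraries were at 41.5 and 45.6 CPM untreated, 47.3 and 47.0 after IFN-γ and 146.7 and 145.7 after IL-4. In CKO they were at 24.2 and 34.3 CPM untreated, 36.0 and 38.5 after IFN-γ and 110.7 and 138.3 after IL-4. The 4 libraries with IL-4 stood above all 8 others, and CKO lay below WT within each treatment. IL-4 raised Fyn by 1.75 ± 0.15 in WT and by 2.08 ± 0.16 in CKO (edgeR adjusted p = 1.56e-05 and 3.44e-06; 1.85 and 8.26e-06 for CKO without its untreated library 1), and the 2 responses differed by 0.34 ± 0.21 (edgeR adjusted p = 0.773). IFN-γ gave 0.11 in WT and 0.34 in CKO (edgeR adjusted p = 0.664 and 0.124). Untreated CKO was lower than WT by -0.57 ± 0.15 (edgeR adjusted p = 0.0268), a call lost without untreated CKO library 1, at -0.33 with an edgeR adjusted p of 0.166, and in the 9 libraries low in Gm42418 (-0.40, edgeR adjusted p = 0.213). Leaving out either untreated WT library also ended it, at -0.63 and -0.50 (edgeR adjusted p = 0.0749 and 0.144). After IFN-γ and IL-4 the genotype differences were -0.34 and -0.23 (edgeR adjusted p = 0.148 and 0.557). The patterns closest to Fyn were those of Dut (r = 0.994), Tarbp2 (0.988) and Hsph1 (0.986), and Dut, the dUTPase of nucleotide metabolism, averaged 20.1 CPM in untreated and 66.0 CPM in IL-4-treated WT cells.

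With IL-4 Lyn fell and Fyn rose, and the balance of these 2 messages shifted. Lyn exceeded Fyn per length by 6.62 and 5.51 times in the untreated WT libraries, by 11.1 and 10.4 times after IFN-γ and by 1.05 and 1.04 times after IL-4. In CKO the ratios were 11.1 and 7.32 untreated, 12.4 and 11.1 after IFN-γ and 1.44 and 1.16 after IL-4. The ratio was thus lower in each of the 4 libraries with IL-4 than in any of the other 8, and closest to 1 in WT.

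Shares of the summed RPKM of Lyn, Fyn, Fgr, Src and Yes1, the 5 Src family kinases among the 8 genes, put these changes on 1 scale. Lyn held 84.8% ± 1.59 (SD) in untreated WT, 91.0% ± 0.33 after IFN-γ and 50.3% ± 0.043 after IL-4, and 86.5%, 86.4% and 54.4% in CKO. Fyn held 14.1% ± 1.56 in untreated WT and 48.2% ± 0.261 after IL-4, against 9.77% ± 2.54 and 42.1% ± 3.74 in CKO. Fgr made up 0.423 to 0.862% in the WT groups and 3.24 to 5.96% in the CKO groups, so that even at its highest it was a small part of the 5. Their summed level was 71.0 RPKM untreated, 128 after IFN-γ and 69.6 after IL-4 in WT, and 68.9, 116 and 67.5 RPKM in CKO.

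**Figure D4:**
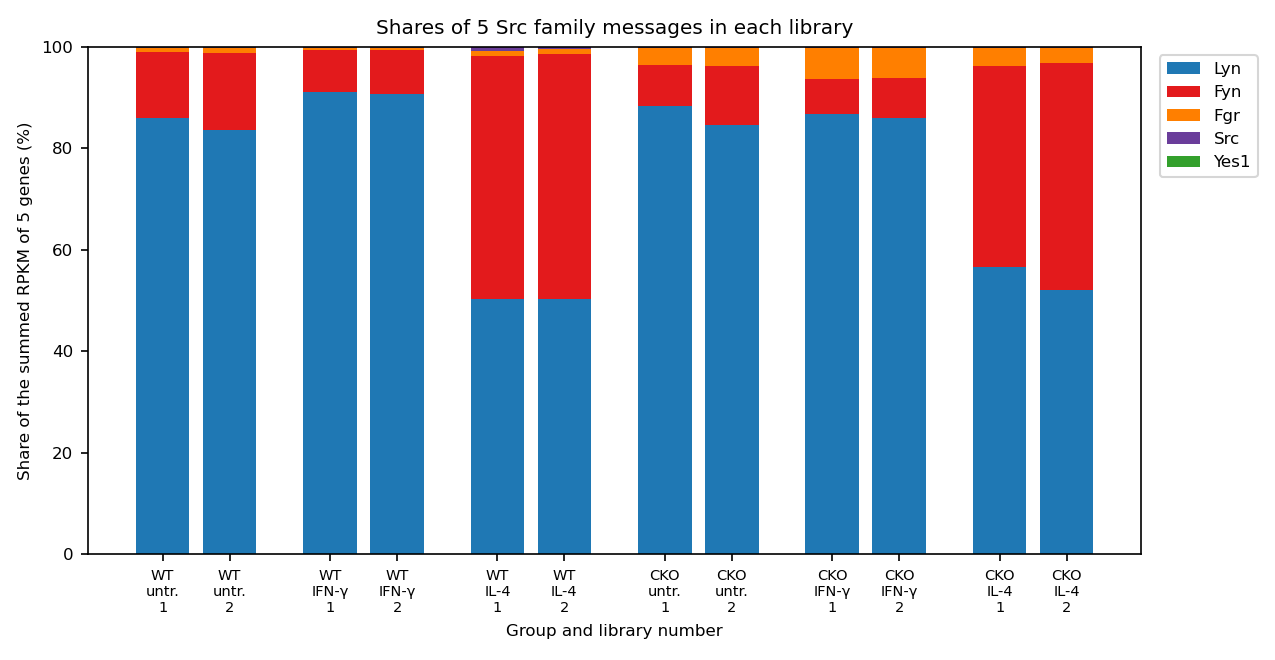
Share (%) of the summed RPKM of Lyn, Fyn, Fgr, Src and Yes1 in each library, stacked by gene from Lyn at the bottom. Fyn widens to 48.2% (WT) and 42.1% (CKO) with IL-4, Fgr is visible in the CKO libraries (up to a group mean of 5.96% with IFN-γ), and Src and Yes1 are too low to see in most bars.

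Src (ENSMUSG00000027646.15, GRCm38 chr2:157418444-157471862, plus strand), the founding member of the family, was scarce. WT libraries held 0.489 and 0.546 CPM untreated, 0.455 and 0.647 after IFN-γ and 2.27 and 1.59 after IL-4. CKO libraries held 0.493 and 0.288 CPM untreated, 1.05 and 1.04 after IFN-γ and 0.555 and 0.791 after IL-4. Only the WT libraries with IL-4, at 47 counts each, exceeded 28 counts, and in the order of levels the 4 groups below CKO with IFN-γ overlapped their neighbours. IL-4 raised Src in WT by 1.87 ± 0.33 (edgeR adjusted p = 0.00296), a call that held in 18 of 18 alternatives, and the value in CKO was 0.83 ± 0.38 (edgeR adjusted p = 0.144); the 2 responses were not shown to differ (-1.04 ± 0.52, edgeR adjusted p = 0.773). IFN-γ raised it in CKO by 1.45 ± 0.37 (edgeR adjusted p = 0.0117; 1.82 and 0.0139 without untreated CKO library 1), against 0.10 ± 0.39 in WT (edgeR adjusted p = 0.898), with a difference of responses of 1.35 ± 0.54 (edgeR adjusted p = 0.297). Without either CKO library with IFN-γ, or without untreated CKO library 2, the call in CKO was lost (up to an edgeR adjusted p of 0.0816). After IL-4 CKO was below WT by -1.48 ± 0.31 (edgeR adjusted p = 0.0267), which was lost without either WT library with IL-4, CKO library 1 with IL-4 or either CKO library with IFN-γ (-1.72 to -1.21, up to an edgeR adjusted p of 0.242). The genotype gap after IFN-γ was 0.91 ± 0.35 and was not called (edgeR adjusted p = 0.0994). That gap minus the gap after IL-4 was 2.39 ± 0.47 (edgeR adjusted p = 0.0195). This added contrast was lost in 5 of 12 fits that each left out 1 library and in the 9 libraries low in Gm42418 (2.13). The nearest patterns to Src, less close than those of Fgr, Lyn and Fyn, were Pdgfa (r = 0.866), Gpt2 (0.858) and Cstb (0.855). Yes1 (ENSMUSG00000014932.15, GRCm38 chr5:32611171-32687057, plus strand), another broadly expressed member, was at 0.117 to 0.396 CPM. Its fold changes ran from -0.59 to 0.93 with SE of 0.54 to 0.88, so differences of that size were not detectable at this depth, and it shares exon bases with Gm10461, a transcript annotated on the minus strand.

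Csk (ENSMUSG00000032312.6, GRCm38 chr9:57626646-57653631, minus strand), the inhibitor of the family, moved little. WT libraries were at 101.6 and 98.5 CPM untreated, 113.3 and 100.2 after IFN-γ and 125.7 and 135.3 after IL-4, and CKO libraries at 95.3 and 111.3, 133.3 and 129.5, and 122.5 and 138.1 CPM in the same order. The libraries with IL-4 lay above all untreated ones, as did the CKO libraries with IFN-γ, whereas WT libraries with IFN-γ overlapped the untreated. IL-4 raised Csk by 0.38 ± 0.11 in WT and 0.33 ± 0.11 in CKO (edgeR adjusted p = 0.0367 and 0.0426), and IFN-γ raised it by 0.35 ± 0.11 in CKO (edgeR adjusted p = 0.0311) against 0.09 in WT (edgeR adjusted p = 0.609). Each of these calls was fragile: without untreated CKO library 1 both CKO values were 0.22 (edgeR adjusted p = 0.24 for IL-4 and 0.206 for IFN-γ), in the 9 libraries low in Gm42418 they were 0.22 again (edgeR adjusted p = 0.177 and 0.151), and the WT value with IL-4 was lost in 6 of the 12 fits without 1 library. Among the closest relatives of Csk, Matk, a kinase of the same family, rose with IL-4 by 3.10 ± 0.19 in WT and 2.93 ± 0.18 in CKO (edgeR adjusted p = 1e-06 and 9.05e-07), from 2.52 to 21.7 CPM in WT.

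Syk (ENSMUSG00000021457.14, GRCm38 chr13:52583173-52648792, plus strand), which docks on phosphorylated ITAMs, was lower in WT cells with IFN-γ. Those libraries held 248.2 and 203.8 CPM, against 328.6 and 292.1 untreated and 341.3 and 325.7 with IL-4. CKO libraries held 328.3 and 303.3 CPM untreated, 300.8 and 280.4 after IFN-γ and 345.1 and 302.6 after IL-4. The WT libraries with IFN-γ were below all other 10 libraries, and the other 5 groups each overlapped their neighbours in level. The IFN-γ effect in WT was -0.46 ± 0.12 (edgeR adjusted p = 0.013). The call was lost without either untreated WT library 1 or WT library 2 with IFN-γ, at -0.37 and -0.32 (edgeR adjusted p = 0.123 and 0.108). Set against IL-4 the same libraries were lower by -0.56 ± 0.12 (edgeR adjusted p = 0.00316). In CKO the IFN-γ effect was -0.12 ± 0.12 (edgeR adjusted p = 0.5), and the difference of responses was 0.34 ± 0.16 with an edgeR adjusted p of 0.426. After IFN-γ CKO exceeded WT by 0.36 ± 0.12 (edgeR adjusted p = 0.0504), a value past the threshold in 10 of 18 alternatives.

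Btk (ENSMUSG00000031264.13, GRCm38 chrX:134542336-134583570, minus strand), the Tec kinase that acts after Syk, was the steadiest of the 8. Its WT libraries lay between 63.7 and 76.5 CPM and its CKO libraries between 60.8 and 68.0 CPM. All 6 groups overlapped their neighbours in the order of levels. The largest change in size was -0.15 ± 0.11 for CKO against WT in untreated cells, with a 95% interval of -0.38 to 0.09 (edgeR adjusted p = 0.359). Fcer1g and Tyrobp, the ITAM adaptors that Syk docks on in myeloid cells, did move in part: Tyrobp was higher in CKO by 0.78 after IFN-γ (edgeR adjusted p = 0.00501; lost without CKO library 1 with IFN-γ) and by 0.68 untreated (edgeR adjusted p = 0.0136; lost without untreated CKO library 1 or either untreated WT library, and in the 9 libraries low in Gm42418). Fcer1g differed by 0.46 after IFN-γ (edgeR adjusted p = 0.158) and by -0.02 after IL-4 (edgeR adjusted p = 0.986).

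Another 100 genes of the pathway, in 8 lists by role, set the members in context; 91 were tested, and these lists were drawn up with results of these data known. After IFN-γ, 36 of 91 were higher and 6 lower in CKO, where 10.4% and 8.01% of all genes were higher and lower, with a median log2 difference of 0.25 against 0.02 over all genes. In untreated cells 15 were higher and 14 lower (background 8.60% and 9.37%), with a median of 0.09 against 0.00, and without untreated CKO library 1 the counts fell to 9 and 6 while the background fell to 2.85% and 2.63%. In the 9 libraries low in Gm42418 they were 4 and 4 (background 1.27% and 1.5%). After IL-4, 2 were higher and 7 lower (background 1.41% and 1.55%), with a median of 0.00 against -0.01. Leaving out 1 library at a time moved the IFN-γ counts between 21 and 38 higher and between 2 and 8 lower, the untreated counts between 3 and 21 higher and 4 and 17 lower, and the IL-4 counts between 1 and 5 higher and 3 and 9 lower. The response to IFN-γ differed between genotypes for 14 genes, all with the larger value in CKO (background 2.07% in that direction; 7 to 22 without 1 library, and 0 to 3 in the other direction; 4 in the 9 libraries low in Gm42418, with a background of 0.485%).

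**Figure D5:**
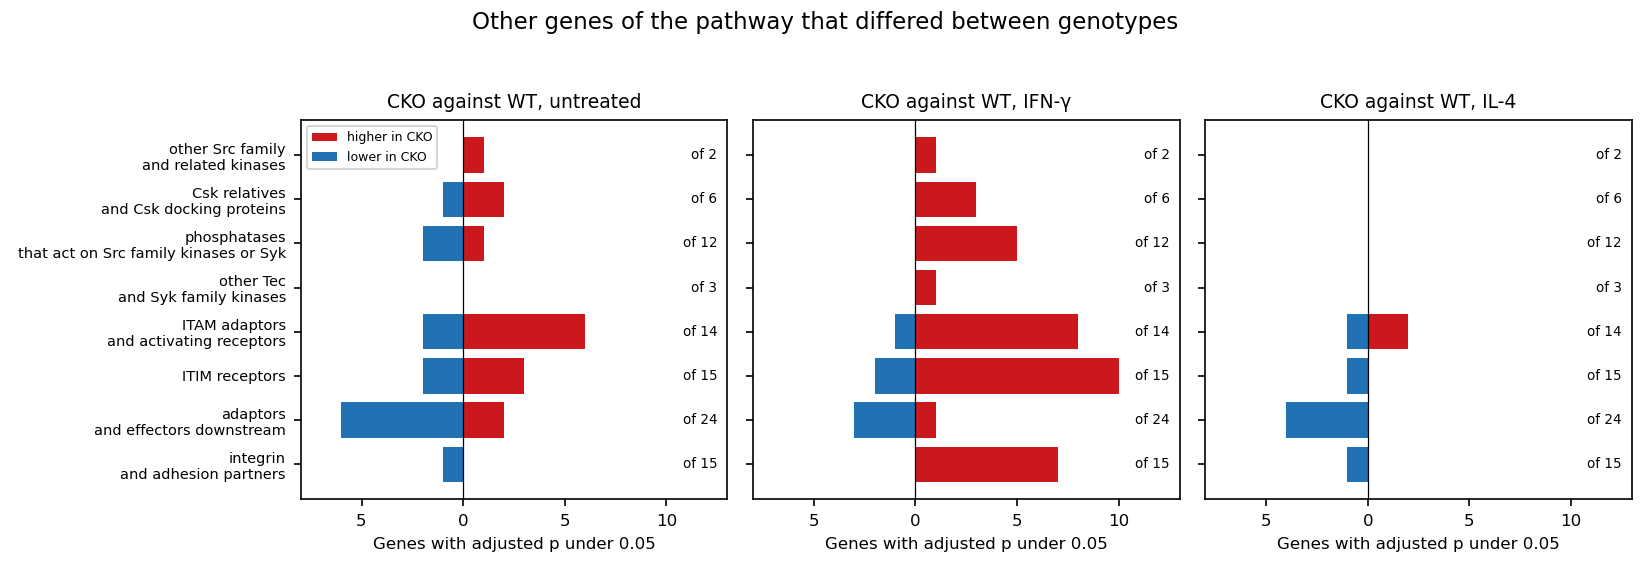
Number of genes with an adjusted p under 0.05 in each of 8 pathway lists for CKO against WT, with genes higher in CKO to the right and lower to the left, for untreated, IFN-γ and IL-4 cells; the number tested stands at the right. ITAM and ITIM receptors have the most genes higher in CKO after IFN-γ (8 of 14 and 10 of 15, background 10.4%). Downstream adaptors, the longest list, have the most that are lower in untreated cells (6 of 24, background 9.37%), and fewer without untreated CKO library 1.

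Of the 8 lists, the 2 lists of receptors upstream of the kinases held the most genes called after IFN-γ. Of 14 ITAM adaptors and activating receptors, 8 were higher and 1 lower in CKO after IFN-γ (median 0.68). Trem3, which signals through Tyrobp, was at 9.97 ± 0.69 CPM (SD) in CKO and 0.685 ± 0.15 in WT (3.84 ± 0.25, edgeR adjusted p = 2.58e-06), and Trem1, an amplifier of inflammation on neutrophils and monocytes, at 8.84 against 0.696 CPM (3.66 ± 0.37, edgeR adjusted p = 6.9e-05). Sirpb1a, another receptor that pairs with Tyrobp, was higher by 2.44 (edgeR adjusted p = 2.71e-05). Fcgr1, the high-affinity IgG receptor, went the other way in untreated cells, at 8.72 CPM in CKO against 27.4 in WT (-1.65 ± 0.13, edgeR adjusted p = 2.37e-05), yet rose more with IFN-γ in CKO (5.02 against 3.84; difference 1.18 ± 0.18, edgeR adjusted p = 0.00545, or 0.072 in the 9 libraries low in Gm42418). Of 15 ITIM receptors, which recruit phosphatases, 10 were higher and 2 lower in CKO after IFN-γ (median 0.65). Pilra was at 45.1 ± 4.22 CPM in CKO and 7.19 ± 0.97 in WT (2.65 ± 0.15, edgeR adjusted p = 1.13e-06), Cd72 differed by 1.54 (edgeR adjusted p = 0.000127) and Siglece by 3.54 (edgeR adjusted p = 0.000147). After IL-4 Cd72 was lower in CKO, by -1.16 (edgeR adjusted p = 0.00385), and the 2 genotype gaps of Cd72 differed by 2.70 ± 0.25 (edgeR adjusted p = 0.000266). After IFN-γ the marker sums given beside Fgr were higher in CKO as well. Neutrophil sums were 404.8 and 404.9 CPM against 58.1 to 71.8 CPM in WT, and monocyte sums 311.2 to 334.7 against 140.6 to 202.1 CPM. After IL-4, 8 of 11 neutrophil and 5 of 8 monocyte markers were still higher in CKO. The receptor lists did not follow there, with 2 of 14 ITAM genes higher and 1 lower, and 0 of 15 ITIM receptors higher and 1 lower (background 1.41% and 1.55%). The part of these markers in the receptor differences was not tested.

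Some genes that restrain the kinases or relay their signals differed as well. Over all genes 10.4% were higher and 8.01% lower in CKO after IFN-γ. Among 6 tested relatives and docking proteins of Csk, 3 were higher in CKO after IFN-γ (Dok1 by 0.42, Pag1 by 0.44 and Dok3 by 0.49; edgeR adjusted p = 0.0216, 0.0292 and 0.0321), and each call was lost without any 1 of the 4 libraries compared. Of 12 phosphatases, 5 were higher and 0 lower after IFN-γ, with Ptpn12 higher by 0.74 and Ptpn6 (SHP-1), which ITIM receptors recruit, by 0.57 (edgeR adjusted p = 0.000202 and 0.00152). Bmx, a Tec family relative of Btk, was higher by 1.99 after IFN-γ at 1.16 against 0.286 CPM (edgeR adjusted p = 0.00358). Of 24 adaptors and effectors, 2 were higher and 6 lower in untreated CKO (background 8.60% and 9.37%), and fewer in both directions without untreated CKO library 1. After IFN-γ 1 was higher and 3 were lower, near the share of all genes and no result about this list. Lat2, an adaptor that Src family kinases and Syk phosphorylate, was lower by -0.80, -0.64 and -0.69 in untreated, IFN-γ and IL-4 cells (edgeR adjusted p = 0.000297, 0.000641 and 0.00182). Cblb, a ubiquitin ligase that limits receptor signals, was lower by -0.80 and -0.69 in untreated and IFN-γ cells (edgeR adjusted p = 0.00307 and 0.00506). Of 15 integrin partners, 7 were higher and 0 lower after IFN-γ, between 2 and 7 without 1 library, with Itgam (the CD11b chain) higher by 0.72 and the adaptor Fyb by 0.59 (edgeR adjusted p = 0.00221 and 0.00462); after IL-4 Itgam was lower by -0.69 (edgeR adjusted p = 0.0127; lost without WT library 1 or either CKO library with IL-4).

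The cytokines changed many of the same 91 genes, in either direction. IFN-γ raised 25 and lowered 26 in WT (background 12.4% and 11.8%) and raised 38 and lowered 16 in CKO (14.7% and 11.9%; 31 and 16 without untreated CKO library 1, where the background was 11.7% and 9.85%). IL-4 raised 17 and lowered 26 in WT (6.64% and 5.59%) and raised 18 and lowered 33 in CKO (11.2% and 11.3%; 16 and 29 without that library, with 6.46% and 5.98%). Fcgr1 and Fcgr4, activating IgG receptors, rose with IFN-γ by 3.84 and 3.94 in WT and by 5.02 and 4.18 in CKO (edgeR adjusted p between 3.21e-10 and 1.17e-06). Itgb3, the beta chain of the vitronectin receptor, moved in opposite directions with the 2 cytokines, by -5.07 in WT and -3.23 in CKO with IFN-γ and by 2.96 and 3.02 with IL-4 (edgeR adjusted p between 3.17e-08 and 7.32e-07). Ptpn6 rose with IFN-γ by 1.19 and 1.41 (edgeR adjusted p = 2.03e-06 and 4.33e-07), alongside Lyn, whereas Tec, the namesake of the family of Btk, changed by -0.96 and -0.82 (edgeR adjusted p = 3.2e-05 and 0.000116). With IL-4 Cblb rose by 1.58 and 2.02 (edgeR adjusted p = 1.46e-05 and 2.07e-06), and Pecam1, an ITIM-bearing adhesion molecule, by 2.65 and 2.80 (edgeR adjusted p = 9.57e-06 and 3.25e-06). The calls named in these cytokine comparisons held in 19 of 19 alternatives, untreated CKO library 1 left out among them.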

How the data were processed

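RNA-seq libraries were made with an exome-capture kit, per the labels' protocols, and the authors deposited raw counts per gene (whole numbers, with a different sum in each library). The tools, per the submitters' processing notes, were CASAVA 1.8.2, Picard 1.97, TopHat2 2.0.13 and HTSeq 0.6.1; the builds GRCh38 and mm10 are named there without their roles. Which annotation release and strand setting were used was not given in the sources used here. Identifiers were matched to GENCODE M21 on GRCm38 (40606 of 48440 with their version, 48058 without it; Csk only without), which gave positions and exon lengths. Promoter windows came from a RefSeq table on GRCm38.p6 with 27025 genes.

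All 12 libraries entered 1 edgeR 4.0.16 fit of 6 group means (R 4.3.3; quasi-likelihood F test, TMM scaling, robust dispersions, filterByExpr), which left 6 residual degrees of freedom. P-values were adjusted by Benjamini-Hochberg, with a threshold of 0.05, over the 16292 genes tested in each of 11 comparisons and 1 added later. The steps were tested on simulated data. Each SE was obtained as the size of the log2 fold change divided by the square root of F and is approximate. CPM used TMM-scaled totals, and RPKM is CPM per kilobase of the union of exons. The 8 members were named throughout; from each pathway list, up to 3 called genes of smallest adjusted p in a comparison, with Fcer1g and Tyrobp always, could be named; some withheld items are left out. Likeness was the Pearson correlation of log2 CPM (prior count 2) among genes with a mean log2 CPM of at least 3, for members whose group means spanned at least 1 on that scale. Members and lists were chosen with earlier results of these data known. Alternatives were DESeq2 1.42.0, edgeR with the size factors of DESeq2, a mean CPM of at least 5, no filter on low counts, a block for the library number (over all libraries or within genotype) each library left out in turn and, added after seeing the data, 3 libraries with over 0.5% of counts from Gm42418 left out together. Libraries of a group differed by more than counting noise, so none was taken as the same library sequenced again. Whether libraries of a group came from the same culture or animal cannot be told from this.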

Additional observations from a re-analysis of the deposited data

Results flagged for a closer look

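Fgr responded to IFN-γ differently in the 2 genotypes, by a difference of 1.68 ± 0.22 on the log2 scale (edgeR adjusted p = 0.00213; 1.69 and 0.0537 in the 9 libraries low in Gm42418). Both CKO libraries with IFN-γ were above both untreated CKO libraries. Both WT libraries with IFN-γ were below both untreated WT libraries, but the nearest of them held 2.277 and 2.285 CPM. The WT change of -0.18 was not called. Over all genes 61.8% in CKO and 59.9% in WT did not overlap between IFN-γ and untreated cells. The genotype gap of Fgr after IFN-γ exceeded that after IL-4 by 1.81 ± 0.22 (edgeR adjusted p = 0.00154). The same contrast for Src was 2.39 ± 0.47 (edgeR adjusted p = 0.0195) on 11 to 47 counts per library, and 2.13 but no longer called in those 9 libraries. For Src CKO was above WT after IFN-γ (0.91) and below it after IL-4 (-1.48) without overlap of the libraries. The difference after IFN-γ was not called (edgeR adjusted p = 0.0994). That after IL-4 was called (edgeR adjusted p = 0.0267) but lost in some fits without 1 library. Over all genes 63.0% and 47.8% did not overlap in these comparisons. Lyn had separate libraries in opposite directions too, lower in CKO after IFN-γ (-0.21) and higher after IL-4 (0.07), but neither difference was called, and the difference between them, -0.28, was not called (edgeR adjusted p = 0.333).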

How the results depend on the processing

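The 33 fold changes of members that were called in at least 1 setting had 613 alternative values. Of these, 547 kept their direction and their side of the threshold, 42 were no longer called and 24 became called. Among called values 0 changed sign. Where neither the main fit nor the alternative gave a call, 103 of 1224 values of the members changed sign. Members called between genotypes after IFN-γ were 2 instead of 1 with DESeq2 and without a filter, and 3 at a mean CPM of at least 5. After IL-4 they were 1 instead of 2 at a mean CPM of at least 5, where Src was not tested. For the added contrast of both genotype gaps they were 1 instead of 2 with DESeq2, which gave Src no adjusted p, and at a mean CPM of at least 5. Leaving out 1 library at a time gave 1 to 2 members (CKO against WT untreated), 1 to 4 (IFN-γ), 1 to 2 (IL-4), 1 to 2 and 2 to 4 (IFN-γ against untreated in WT and CKO), 3 to 4 and 2 to 3 (IL-4 against untreated), 4 to 5 and 3 to 3 (IFN-γ against IL-4), 1 to 1 and 0 to 0 (the IFN-γ and IL-4 interactions) and 1 to 2 (the added contrast). In the 9 libraries with under 0.5% of counts from Gm42418, a setting chosen after seeing the data, 1 member instead of 2 was called between untreated genotypes, 3 instead of 1 after IFN-γ, 0 instead of 1 for the IFN-γ interaction and 1 instead of 2 for the added contrast. A group left with 1 library was assumed to vary like the others.

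Library numbers are shared by the groups. Same-numbered libraries deviated together within a genotype, with r from 0.1 to 0.431. Between genotypes r ran from -0.005 to 0.256, so the ranges overlapped. The highest of each, 0.431 for untreated and IFN-γ WT and 0.256 for untreated WT and CKO, joined groups whose library 1 was high in Gm42418. The part of Gm42418 in this was not tested. The labels do not tie a number to an animal or culture. Whether the numbers pair the libraries within a genotype is thus not settled, and the block is given as an alternative. With the library number as a block, 2 members instead of 1 were called between genotypes after IFN-γ, Syk being added (0.37, edgeR adjusted p = 0.00795); Fyn with IFN-γ in CKO (0.36, edgeR adjusted p = 0.0454, or 0.0143 with the block within genotype) and Csk between cytokines in WT (-0.29, edgeR adjusted p = 0.0498, or 0.0291) became called.

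Genes called in all moved by over 1.5 times in some settings: between genotypes after IL-4, 482 became 1129 without a filter, 290 at a mean CPM of at least 5 and 860 with the block; for IL-4 in WT, 1992 became 3023 with the block within genotype; for the IFN-γ interaction, 443 became 1019, 731 and 1080 without a filter, with the block and with the block within genotype; for the IL-4 interaction, 6 became 42 with DESeq2 and 291, 26 and 85 in those 3 settings; for the added contrast, 495 became 1220, 851 and 1254. Leaving out 1 library gave 875 to 5005 genes in place of 2927 between untreated genotypes, 1218 to 3943 in place of 2995 after IFN-γ and 128 to 685 in place of 482 after IL-4. For IFN-γ the range was 2617 to 4558 in WT and 2702 to 5221 in CKO, for IL-4 893 to 2497 and 1711 to 5214, and between cytokines 3052 to 5244 and 3195 to 5621. The interactions ran from 118 to 1008 (IFN-γ) and 1 to 371 (IL-4), and the added contrast from 131 to 822. In the 9 libraries low in Gm42418, 452 genes were called between untreated genotypes, 2116 for IL-4 in CKO, 112 for the IFN-γ interaction and 0 for the IL-4 interaction (by edgeR, with 626 at an unadjusted p under 0.05). The causes were not tested. Depth limits Yes1 and Src, with at most 11 and 47 counts.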
